A study of Sus scrofa with 599 samples.

Results

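Greater omentum fat (GOM) and retroperitoneal adipose (RAD) of pigs after weight loss (WL) were compared in 10 RNA-seq libraries of each depot, which are 20 of the 236 RNA-seq samples of the series, and in 10 Hi-C maps of each depot, which are 20 of 240. The samples were chosen by their labels alone. The WL pigs were grown females of the Bama breed, a small Chinese pig, that were made obese on a high-fat diet and then kept on a strongly restricted ration, and no food was given in the night before sampling. Both depots therefore share breed, sex, diet history and fasting, and differ in their place in the body. The weight-gain (WG) pigs had the high-fat diet without the restriction. They gave 45 GOM and 39 RAD libraries, and 46 GOM and 40 RAD Hi-C maps, for a comparison of the depot difference. By the paper, the WL pigs were older at sampling by the weeks of restriction. Restriction and age cannot be told apart in that comparison. By the study's methods both depots came from the same 10 WL pigs, but the labels do not say whether samples with the same replicate number came from the same pig. The samples were therefore tested without pairing, as if independent.

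The greater omentum hangs from the stomach inside the peritoneal cavity. It is covered on both faces by mesothelium, a flat epithelium that carries keratins and uroplakins, and it holds clusters of lymphocytes and macrophages. Retroperitoneal fat lies behind the peritoneum against the body wall and kidney, and little of its surface is mesothelium. HOX genes and other homeobox genes are laid down by position in the embryo and stay on in adult stromal cells, so that fat depots can be told apart by them.

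Each library held 10221110 to 20357269 estimated counts on protein-coding genes (PCGs). The share of TPM (a measure of transcript level scaled for gene length and library size) that fell on PCGs had a median of 87.5% in GOM (70.8% to 91.4%) and of 92.3% in RAD (76.2% to 94.1%). The difference of the means was not significant (p = 0.196, 2-sided permutation test, 100000 permutations). The RAD median nevertheless lay above the highest GOM library, and RAD replicates 4 and 5 were low, at 76.3% and 76.2%. The first principal component of expression held 36.5% of the variance and separated all 20 libraries by depot. GOM replicates 3, 10 and 7 lay nearest to RAD on that component (-13.4, -18.5 and -21.4). For replicates 3 and 7, the median Spearman correlation with the RAD libraries (0.959 and 0.957) was slightly above that with the other GOM libraries (0.954 and 0.955). For replicate 10 both medians were 0.949. The summed TPM of mesothelial markers was 195.8 in GOM replicate 3 and 296.6 in GOM replicate 7, against a GOM median of 496.4. It was 230.3 in GOM replicate 4 and 522.8 in GOM replicate 10, so a low sum did not go with nearness to RAD in every library. Counts are also given without GOM replicates 3 and 7, a choice made after seeing the data.

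Of 14018 PCGs tested, 1710 were differentially expressed (DEGs; adjusted p below 0.05 and fold change above 1.5, edgeR quasi-likelihood test), which is 12.2% of those tested. GOM was the higher depot for 1140 of them (8.13%) and RAD for 570 (4.07%). The omental genes also had the larger changes. The median fold change was 2.32 among DEGs higher in GOM and 1.89 among DEGs higher in RAD, and 84 of the former but 10 of the latter differed more than 16-fold. The 10 libraries of one depot all lay above the 10 of the other for 276 genes higher in GOM (1.97% of those tested) and for 47 higher in RAD (0.335%). The median log2 fold change of all genes tested was close to 0 (-0.0028). Without GOM replicates 3 and 7, 1253 DEGs were higher in GOM and 644 in RAD. These libraries were left out because they lay nearer to RAD, which by itself widens the contrast, so the higher counts are no independent check.

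Genes named here are from the 12 taken in each direction by rank of fold change among DEGs that did not overlap between the depots. Log2 fold changes are given as RAD over GOM throughout, so that a negative value is a higher level in GOM. Counts of DEGs within a list can be set beside the shares over all genes tested, 8.13% higher in GOM and 4.07% higher in RAD.

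**Figure D1:**
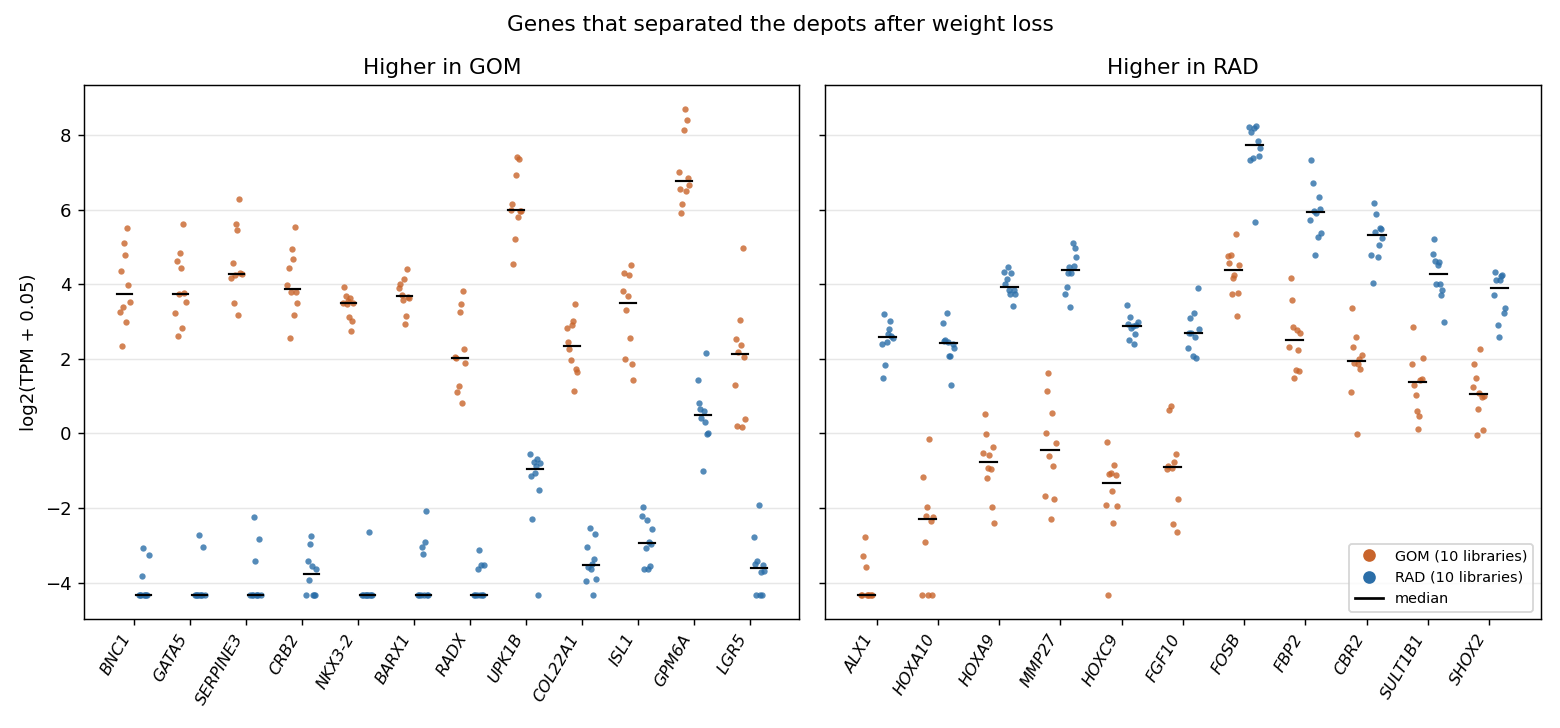
Expression of 12 genes higher in GOM and 11 higher in RAD, from those with the largest fold change in each direction, as log2(TPM + 0.05), with 1 point per library, 10 libraries of GOM in orange and 10 of RAD in blue, and the median as a bar. For every gene, the points of the depots do not overlap, and most points of BNC1, GATA5, SERPINE3, NKX3-2, BARX1 and RADX in RAD and of ALX1 in GOM are listed at 0.

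BNC1 (basonuclin, a zinc finger protein of mesothelium and keratinocytes; ENSSSCG00000001798, chromosome 7, 51651179 to 51679781) had 5.08 TPM in the lowest, 13.6 in the median and 45.8 in the highest GOM library. In RAD, 7 libraries were listed at 0 and the highest had 0.0676 TPM. GATA5, a transcription factor of visceral mesoderm and endoderm, ranged from 6.12 to 49.5 TPM in GOM (median 13.4) and from 0 to 0.102 in RAD. The depots did not come near each other for either gene. Over all 10 libraries, BNC1 had 7171 reads in GOM and 7 in RAD, and GATA5 had 3922 and 4. The log2 fold changes of -9.74 ± 0.60 (SE; adjusted p = 1.1e-10, edgeR) for BNC1 and -9.51 ± 0.59 (adjusted p = 1.1e-10) for GATA5 rest on those few RAD reads and depend on the prior count of the fit.

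NKX3-2 and BARX1, homeobox genes that pattern the mesenchyme around the stomach and spleen, were even across the omental libraries. NKX3-2 ranged from 6.64 to 15.2 TPM in GOM (median 11.2), and 9 of 10 RAD libraries were listed at 0. It had 937 reads in GOM and 1 in RAD, a ratio of 1044 per read sequenced, with an exact 95% interval of 187.0 to 41295 that covers counting error only. BARX1 ranged from 7.67 to 21.2 TPM in GOM (median 12.9) and from 0 to 0.187 in RAD. ISL1, a LIM homeobox gene, had 2.65 to 23.05 TPM in GOM (median 11.3) and at most 0.203 in RAD. These 3 genes were therefore on in every omental library and close to undetected in every RAD library.

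The other genes at the top in GOM were UPK1B, a uroplakin (log2 fold change -7.61 ± 0.45), GPM6A, a membrane glycoprotein (-6.72 ± 0.48), CRB2, a protein of epithelial polarity (-8.98 ± 0.54), SERPINE3 (-9.48 ± 0.60), COL22A1, a collagen of tissue junctions (-6.78 ± 0.43), RADX (-7.66 ± 0.60) and LGR5, a receptor of R-spondins (-6.67 ± 0.75). UPK1B was the clearest of them on an absolute scale, with 23.1 to 171.5 TPM in GOM (median 63.2) and 0 to 0.632 in RAD. GPM6A ranged from 59.8 to 415.1 TPM in GOM (median 108.8) and from 0.450 to 4.40 in RAD. The levels of these surface genes varied several-fold among the omental libraries, whereas NKX3-2 varied little.

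In RAD, ALX1, a paired-type homeobox gene of mesenchyme, had 2.76 to 9.12 TPM (median 5.99), while 7 GOM libraries were listed at 0 and the highest had 0.0963 (log2 fold change 7.84 ± 0.40, adjusted p = 4.7e-12, edgeR). SHOX2, a homeobox gene of the limb, had 5.95 to 19.9 TPM in RAD (median 15.2) and 0.927 to 4.72 in GOM (2.61 ± 0.26). Both genes were on in every RAD library, with no overlap with GOM. HOXA10, HOXA9 and HOXC9 were also among the 12.

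Other genes of the 12 were of other kinds. FGF10, a growth factor that mesenchyme makes for epithelium and for fat precursors, had 4.04 to 14.8 TPM in RAD (median 6.43) and 0.110 to 1.61 in GOM. FBP2, the muscle form of the gluconeogenic enzyme fructose bisphosphatase, had 27.4 to 161.3 TPM in RAD (median 61.4) and 2.74 to 17.96 in GOM. MMP27, a matrix metalloprotease, had 10.5 to 34.2 TPM in RAD (median 20.98) and 0.153 to 3.01 in GOM. CBR2, a carbonyl reductase (log2 fold change 3.31 ± 0.32), SULT1B1, a sulfotransferase (2.88 ± 0.32), and FOSB, described with the immediate early genes, also belong here. None of the 24 genes ranked in this way overlapped between depots, as the rule for naming them required.

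For 4 of the genes whose starts lay under an H3K27ac region in only 1 depot, the bases just before the gene start are shown, since H3K27ac marks active promoters and enhancers. Each run is the 250 bases before the RefSeq start on Sscrofa11.1, read 5′ to 3′ on the strand of the gene, at chr7:51650929-51651178 (plus strand) for BNC1, chr13:141026369-141026618 (minus strand) for UPK1B, chr15:24408378-24408627 (minus strand) for EN1 and chr5:19212240-19212489 (plus strand) for HOXC9. Capitals mark the GC box, spelled GGGCGG, on either strand. They also mark the box spelled CCAAT on either strand.
BNC1: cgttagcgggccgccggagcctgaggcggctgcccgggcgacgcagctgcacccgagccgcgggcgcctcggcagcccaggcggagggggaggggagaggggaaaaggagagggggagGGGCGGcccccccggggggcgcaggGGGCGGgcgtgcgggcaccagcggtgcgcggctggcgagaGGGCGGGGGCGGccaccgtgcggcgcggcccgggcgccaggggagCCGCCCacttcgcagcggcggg
UPK1B: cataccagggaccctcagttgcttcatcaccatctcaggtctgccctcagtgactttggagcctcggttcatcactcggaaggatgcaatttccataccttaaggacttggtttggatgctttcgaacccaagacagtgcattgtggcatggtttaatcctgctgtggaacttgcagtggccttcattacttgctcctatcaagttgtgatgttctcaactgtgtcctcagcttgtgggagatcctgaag
EN1: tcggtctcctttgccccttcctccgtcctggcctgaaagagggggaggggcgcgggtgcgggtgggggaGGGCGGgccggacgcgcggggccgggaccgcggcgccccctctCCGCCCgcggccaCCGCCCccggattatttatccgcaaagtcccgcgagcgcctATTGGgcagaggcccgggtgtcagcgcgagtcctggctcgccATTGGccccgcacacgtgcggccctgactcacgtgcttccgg
HOXC9: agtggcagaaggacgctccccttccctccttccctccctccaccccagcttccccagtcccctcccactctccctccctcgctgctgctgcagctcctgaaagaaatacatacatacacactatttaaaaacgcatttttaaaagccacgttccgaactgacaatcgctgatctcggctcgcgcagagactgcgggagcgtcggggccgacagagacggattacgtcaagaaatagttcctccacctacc

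The 4 sequences differ in composition. BNC1 held 83.2% G and C with 36 CpG pairs, and EN1 held 74.0% with 32. UPK1B held 48.8% with 3 CpG pairs, and HOXC9 55.6% with 15. The median over 13094 windows of the same length was 60%. The letters GGGCGG occurred 5 times before BNC1 and 3 times before EN1, and were found in 53.19% of all windows. CCAAT occurred 2 times before EN1, against 31.66% of windows with at least 1, and neither word was found before UPK1B or HOXC9. A match is a run of letters and not a measured binding site.

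H3K27ac regions over gene starts followed the depot of expression for most of the top genes in GOM and for few in RAD. The regions were called on reads pooled over 4 H3K27ac samples in each depot, so that no test could be made. Of the 12 genes highest in GOM, 11 had a place on an autosome, and the start of 10 of them (BNC1, GATA5, SERPINE3, CRB2, NKX3-2, UPK1B, COL22A1, ISL1, GPM6A and LGR5) lay in a region of GOM and in none of RAD. BARX1 started in a region of neither depot. Of the 11 placed genes highest in RAD, HOXA9 and HOXC9 started in a region of RAD alone, 4 in regions of both depots and 5 in neither. BNC1, GATA5, CRB2 and GPM6A lay within 10 kb of a super-enhancer of GOM and of none of RAD, and HOXA10 and HOXC9 within 10 kb of one of RAD and of none of GOM. The share of all genes so placed was not computed, so whether this is more than for other genes was not tested.

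Over all DEGs, the shares differed as follows. Among DEGs higher in GOM, 27.8% of 886 placed genes started in a region of GOM alone and 4.06% in one of RAD alone, against 11.02% and 8.73% among the 9240 placed genes that were not DEGs. Among DEGs higher in RAD, 14.6% of 472 started in a region of RAD alone and 8.05% in one of GOM alone. A region in both depots was the most frequent state in all 3 classes. GOM had 22783 regions and RAD 21825.

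**Figure D2:**
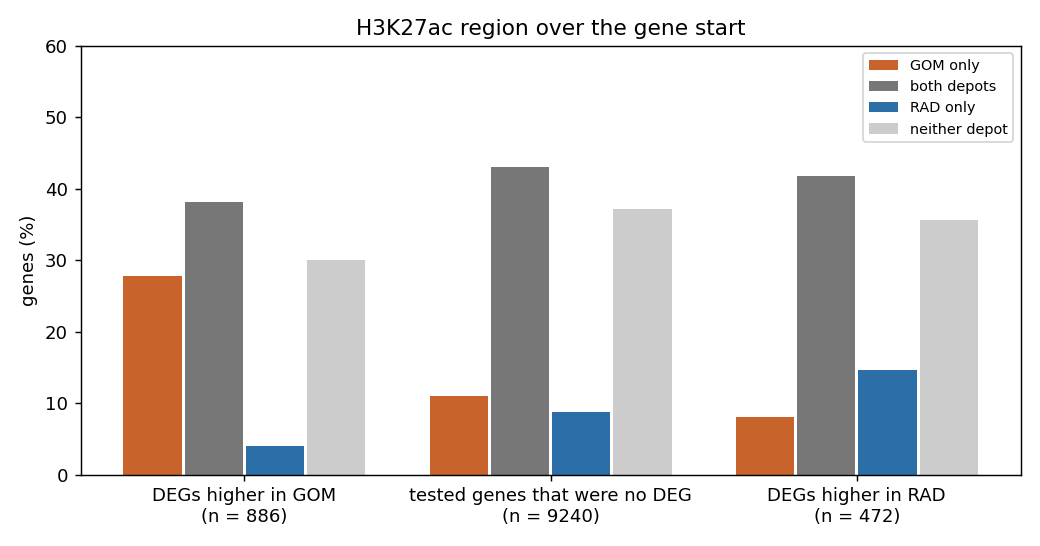
Share of genes in percent whose start lay in an H3K27ac region of GOM only, of both depots, of RAD only or of neither, for DEGs higher in GOM (886 genes), tested genes that were no DEG (9240) and DEGs higher in RAD (472). The bar for GOM only reaches 27.8% among DEGs higher in GOM and 8.05% among DEGs higher in RAD, and the bar for RAD only reaches 4.06% and 14.6%.

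Mesothelial markers formed the clearest group. Of 17 genes on the list, 10 had a symbol in the tables and 9 were tested. GOM was higher for 8 of these 9, RAD for 0, and KRT18 did not pass the test. The median log2 fold change of the 9 was -5.67, against -0.0028 for all genes tested, and 7 did not overlap between depots. KRT8, a keratin of simple epithelia, ranged from 65.9 to 451.8 TPM in GOM (median 186.6) and from 0.894 to 7.46 in RAD (log2 fold change -5.79 ± 0.51, adjusted p = 2.1e-08, edgeR). KRT7 ranged from 15.5 to 93.3 TPM in GOM (median 34.5) and from 0.340 to 1.43 in RAD. DSP, a desmosomal protein, ranged from 8.50 to 55.4 TPM in GOM (median 12.0) and from 0.0672 to 0.866 in RAD. CLDN15, a tight junction protein, had the smallest change of the 7 genes that did not overlap, -2.07 ± 0.21.

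KRT18, the usual partner of KRT8, was uneven within both depots, from 0.811 to 109.4 TPM in GOM and from 0.248 to 96.0 in RAD (log2 fold change -0.27 ± 0.99, adjusted p = 0.89). The summed level of the mesothelial markers was 195.8 to 1182.1 TPM in GOM (median 496.4) and 7.32 to 110.8 in RAD (median 17.3), so that the highest RAD library, replicate 10, lay below the lowest omental library. In these bulk libraries, more cells of a type and more RNA per cell cannot be told apart. LRP2, an endocytic receptor placed on the list of kidney and adrenal markers, also followed the omentum, with 8.29 to 92.8 TPM in GOM and 0.155 to 0.609 in RAD (-6.65 ± 0.43). Of the other genes on that list, 2 were expressed highly enough to be tested and 0 of these were DEGs.

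**Figure D3:**
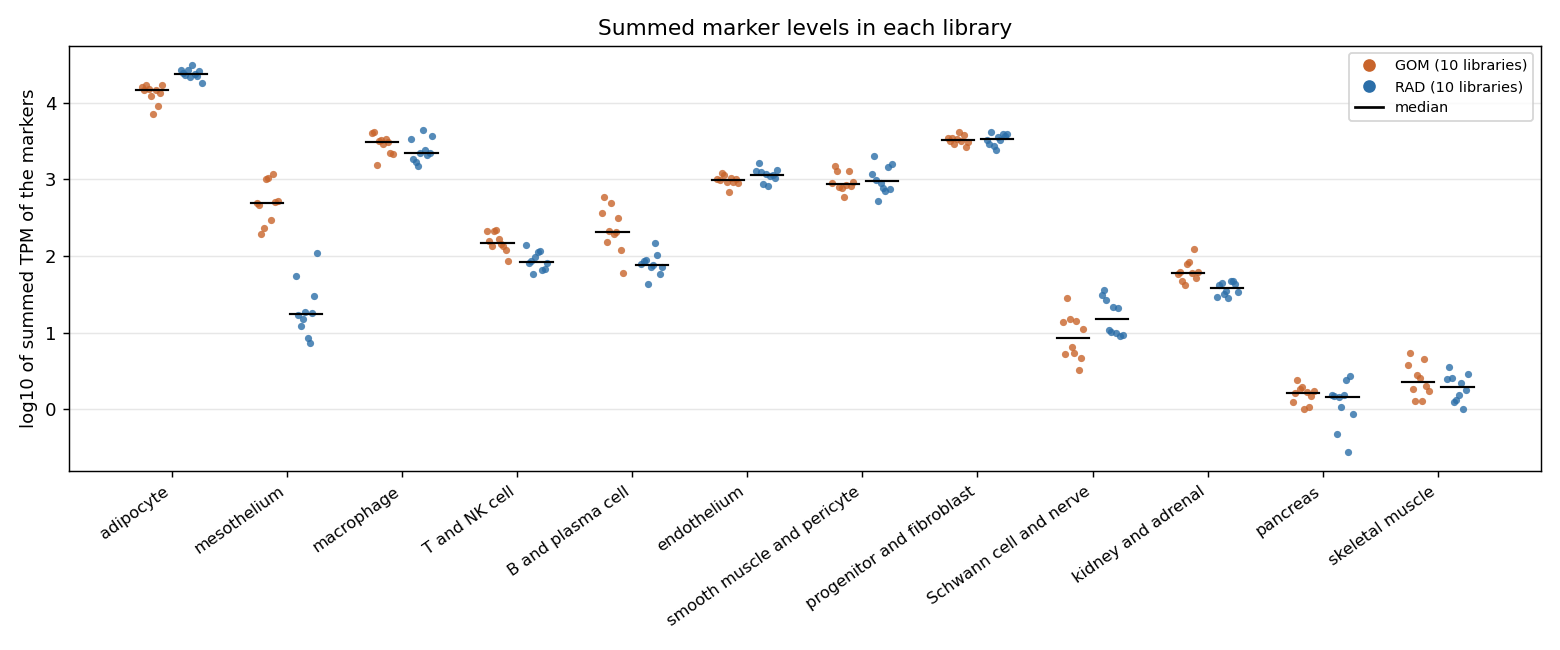
Log10 of the summed TPM of 12 marker lists in each of 10 GOM (orange) and 10 RAD (blue) libraries, with the median as a bar. Mesothelial markers are apart, at 195.8 to 1182.1 TPM in GOM and 7.32 to 110.8 in RAD. The sum of the adipocyte markers, much of it FABP4, is higher in RAD without overlap, and the other lists overlap.

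Markers of other cells moved less. Over all genes tested, 8.13% were called higher in GOM and 4.07% in RAD. Adipocyte markers were higher in RAD for 7 of the 13 tested and in GOM for 0, with a median log2 fold change of 0.70. Their summed level was 7029 to 17255 TPM in GOM and 17986 to 30844 in RAD, without overlap. FABP4 made up much of that sum, and 0 of the 13 markers separated the depots by itself. T and NK cell markers were higher in GOM for 9 of 16 and in RAD for 0 (median -0.89), with a summed level of 85.2 to 219.8 TPM in GOM and 58.5 to 137.3 in RAD. Macrophage markers were higher in GOM for 3 of 20 (MARCO, LYVE1 and VSIG4, the last of which lost its call under 4 alternatives) and in RAD for 0, B and plasma cell markers for 2 of 11 (JCHAIN and TNFRSF17) and 0, and smooth muscle and pericyte markers for 0 of 14 in either direction. Of 14 endothelial markers tested, 11 were not called (median 0.13). FLT4, a receptor of lymphatic vessels, was the 1 higher in GOM (-1.29 ± 0.31), and ERG and ROBO4 were the 2 higher in RAD. Pancreas markers reached a summed level of at most 2.68 TPM, and none was expressed highly enough to be tested. How far these cell type differences enter the results below was not tested.

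JCHAIN, the chain that joins antibody subunits in plasma cells, was the largest change among lymphoid genes. It ranged from 23.9 to 499 TPM in GOM (median 139.3) and from 17.6 to 95.01 in RAD, with overlap (-2.48 ± 0.44, adjusted p = 0.00028, edgeR). CD2 of T cells ranged from 9.50 to 39.3 TPM in GOM (median 23.6) and from 5.72 to 20.98 in RAD (-1.18 ± 0.25). CCL21, the chemokine of lymphatic endothelium, ranged from 16.8 to 121.1 TPM in GOM and from 5.19 to 35.1 in RAD (-1.95 ± 0.40). All 3 of these genes overlapped between the depots.

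Transcription factors of the visceral lineage were mostly higher in GOM. Of 13 on the list, 10 were tested, 8 were DEGs higher in GOM and 1 (TBX18) was higher in RAD, with a median log2 fold change of -3.03. WT1, the Wilms tumour gene of mesothelium and of its descendants, ranged from 21.9 to 181.5 TPM in GOM (median 48.2) and from 3.51 to 9.50 in RAD (-3.42 ± 0.32, adjusted p = 6.8e-08, edgeR). GATA6 ranged from 18.9 to 123.5 TPM in GOM (median 37.6) and from 4.46 to 12.9 in RAD. TCF21, a factor of visceral stroma and fat precursors, ranged from 4.90 to 14.2 TPM in GOM and from 0.0549 to 1.3 in RAD (-4.58 ± 0.40). The depots were separate for all 3 genes, and WT1 and GATA6 were above 3 TPM in every RAD library as well.

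HAND2 was also separate, with 10.2 to 39.5 TPM in GOM and 0.414 to 3.90 in RAD. FOXF1 (-1.17 ± 0.17) and MEIS2 (-0.84 ± 0.12) changed less, and NR2F1 did not pass the test (-0.04). TBX18, which is active in the septum transversum and in somites, went the other way, with 12.5 to 33.03 TPM in RAD and 2.59 to 8.61 in GOM (2.02 ± 0.22). ALDH1A2, which makes retinoic acid in mesothelium, ranged from 75.55 to 265.5 TPM in GOM (median 152.1) and from 13.1 to 54.8 in RAD (-2.40 ± 0.27).

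Transcription factors of body wall and limb patterning were mostly higher in RAD. Of 25 on the list, 23 had a symbol and 14 were tested. RAD was higher for 10 (EMX2, EN1, TBX5 and SHOX2 among them) and GOM for SIX2 alone, with a median log2 fold change of 1.92. EN1, a homeobox gene of ventral ectoderm and dermomyotome, ranged from 2.50 to 7.36 TPM in RAD (median 4.55) and from 0.161 to 0.888 in GOM (3.66 ± 0.33). EMX2, a homeobox gene of the urogenital ridge, ranged from 1.88 to 6.40 TPM in RAD and from 0 to 0.410 in GOM (4.63 ± 0.42). SIX2 was the exception, at 1.09 to 12.8 TPM in GOM and 0.191 to 0.783 in RAD (-3.09 ± 0.38).

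HOX genes split by cluster and by number. Of 34 with a symbol, 23 were tested, 8 were higher in RAD and 9 in GOM, with a median log2 fold change of -0.13. In the HOXB cluster, 6 of 7 tested genes were higher in GOM and 0 in RAD. In HOXD, 3 of 4 were higher in RAD and 0 in GOM. HOXA and HOXC changed along the cluster. HOXA2 was higher in GOM, HOXA3, HOXA5 and HOXA7 did not pass the test, and HOXA9 and HOXA10 were higher in RAD. HOXC5 was higher in GOM, and HOXC6, HOXC8 and HOXC9 were higher in RAD.

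**Figure D4:**
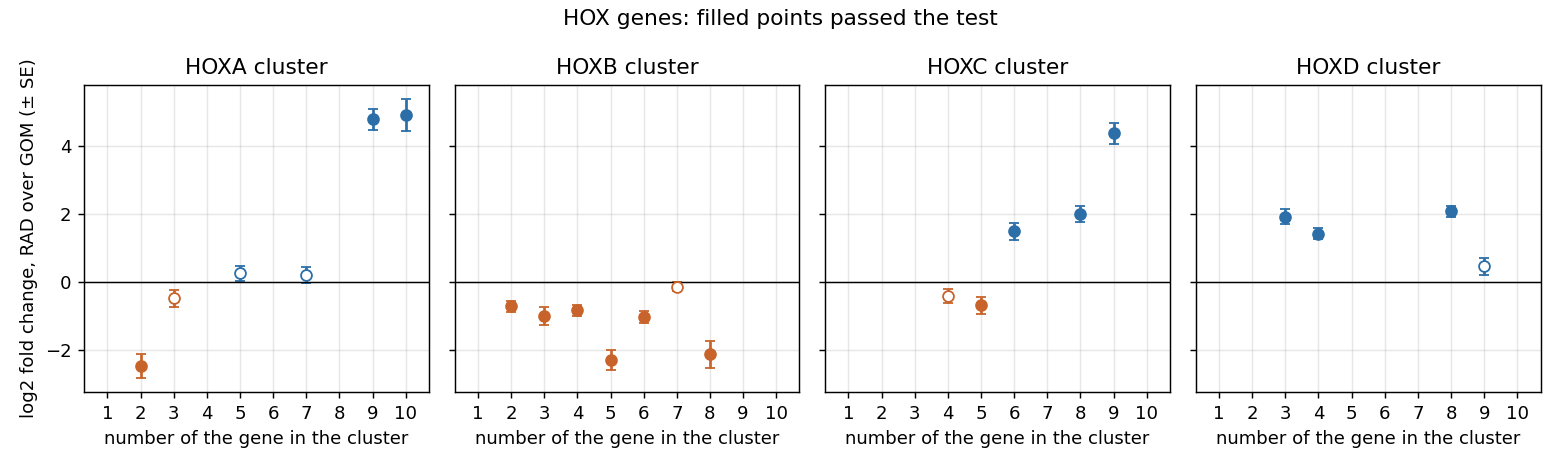
Log2 fold change of RAD over GOM with its SE for 22 of the 23 HOX genes tested, by cluster and by the number of the gene, with filled points for DEGs and open points for genes that did not pass. The points of HOXB lie below 0, those of HOXD above 0, and those of HOXA and HOXC go from below 0 at low numbers to more than 4 at number 9.

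HOXA9 ranged from 10.68 to 22.1 TPM in RAD (median 15.1) and from 0.138 to 1.38 in GOM (4.77 ± 0.30, adjusted p = 1.3e-10, edgeR). HOXA10 ranged from 2.39 to 9.34 TPM in RAD and from 0 to 0.855 in GOM (4.90 ± 0.48), and HOXC9 from 5.27 to 10.9 and from 0 to 0.806 (4.37 ± 0.31). HOXA5, a few genes away from HOXA9, overlapped almost fully, with 8.22 to 28.8 TPM in GOM and 7.89 to 28.7 in RAD. HOXB6, at 14.7 to 35.4 TPM in GOM and 6.85 to 18.5 in RAD, and HOXB5 (-2.29 ± 0.30) stood for the HOXB genes. HOXD9 did not pass the test (0.46 ± 0.26).

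Some genes of fat storage were higher in RAD, and most of those tested were not called. FABP4, the fatty acid carrier of adipocytes, had 4625 to 10894 TPM in GOM and 9373 to 24281 in RAD (log2 fold change 1.01 ± 0.18, adjusted p = 0.00036, edgeR). LEP, the hormone leptin, had 154.4 to 538.3 TPM in GOM (median 265) and 347.7 to 1004 in RAD (median 584.7; 1.02 ± 0.24). ADIPOQ did not pass the test (0.67 ± 0.24, adjusted p = 0.056). Against 4.07% of all genes called higher in RAD and 8.13% in GOM, fatty acid uptake had 6 of 14 tested genes higher in RAD and 1 (VLDLR) in GOM, lipolysis and its receptors 5 of 13 and 1 (ADRA2A), triglyceride synthesis and lipid droplet 2 of 18 and 0, and fatty acid oxidation 1 of 17 and 0. De novo lipogenesis had 0 of 15 in either direction, although SCD was uneven (11.06 to 522 TPM in GOM and 24.5 to 1358 in RAD). The nuclear-encoded respiratory chain had 0 of 58.

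Adipogenic transcription factors and insulin signalling genes were higher in RAD for 4 of 20 (PPARG, IRS2 and AKT2 among them) and in GOM for 0. VLDLR, which takes up lipoproteins, was the one uptake gene that did not overlap, with 82.9 to 142.5 TPM in GOM and 41.01 to 82.3 in RAD (-0.94 ± 0.16). ADRA2A, the receptor that restrains lipolysis, had 2.87 to 15.1 TPM in GOM and 0.460 to 3.79 in RAD (-2.17 ± 0.41). Among 11 adipokines tested, 3 (LEP, AGT and APLN) were higher in RAD, and AGT and APLN lost that call under 3 alternatives each. LCN2, an iron-binding protein of inflammation, was higher in GOM with its depots just meeting (median 76.85 TPM, highest 215.6, against 6.25 and 18.04 in RAD, -3.56 ± 0.42), as was RARRES2, the chemokine chemerin (-1.01 ± 0.20). Thermogenic genes had 2 of 16 higher in RAD (EBF2 and UCP3) and 4 in GOM (BMP7, TBX1, UCP2 and GATM), of which UCP3, UCP2 and GATM lost their call under at least 1 alternative fit.

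Among complement genes, GOM was higher for 5 of the 14 tested (CFI, C3, C4A, CFB and SERPING1) and RAD for MASP1. The shares over all genes tested were 8.13% for GOM and 4.07% for RAD. CFI, the protease that inactivates C3b, had 63.6 to 866.5 TPM in GOM (median 206) and 9.56 to 34.05 in RAD without overlap (-3.74 ± 0.47). C3 had 43.8 to 1214 TPM in GOM (median 413) and 15.4 to 119.4 in RAD with overlap (-3.55 ± 0.58). The summed level of the list was 1254 to 4072 TPM in GOM and 830.1 to 1402 in RAD.

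Of the gene lists, immediate early genes had the most DEGs higher in RAD. RAD was higher for 12 of the 18 tested and GOM for 0, with a median log2 fold change of 1.04, and FOS and FOSB did not overlap. FOS, a subunit of the AP-1 factor, had 666.7 to 2293 TPM in RAD (median 1390) and 136 to 617.4 in GOM (1.99 ± 0.26). FOSB had 50.6 to 304.6 TPM in RAD (median 214.8) and 8.87 to 40.6 in GOM (3.37 ± 0.30). NR4A3, an orphan nuclear receptor, had 8.78 to 114 TPM in RAD and 2.94 to 17.4 in GOM (2.35 ± 0.34). Among chemokines and cytokines, IL6, CXCL2, IL1A and IL15 were the 4 of 31 higher in RAD, and CCL21, IL16 and TGFB2 the 3 higher in GOM. The shares over all genes tested were 4.07% for RAD and 8.13% for GOM.

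Ligands of the WNT, R-spondin and BMP families differed in both directions. Over all genes tested, 8.13% were higher in GOM and 4.07% in RAD. Of 18 WNT ligands and inhibitors tested, 7 were higher in GOM and 3 in RAD. RSPO1, an R-spondin that raises WNT signalling and is made by mesothelium, had 17.3 to 68.6 TPM in GOM (median 32.3) and 0.582 to 3.20 in RAD (-4.73 ± 0.38, adjusted p = 6.4e-09, edgeR). WNT5A had 11.3 to 45.3 TPM in GOM and 2.66 to 6.25 in RAD, and WNT9A 14.7 to 33.1 and 2.38 to 9.96. In RAD, WNT2 (2.92 ± 0.38) and the decoy receptor SFRP4 (2.26 ± 0.25) were the higher ones without overlap, and SFRP1 was the third. Among 16 BMP and activin genes, 7 were higher in GOM and 4 in RAD. BMP3 had 6.41 to 58.6 TPM in GOM and 0.0447 to 0.540 in RAD (-6.42 ± 0.48), and GREM1 (-2.14 ± 0.33) and BMP4 (-1.17 ± 0.24) were also higher in GOM, while INHBB, FSTL1, BMP5 and FST were higher in RAD, the last with its call lost under 1 alternative.

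Matrix genes were split, where 8.13% of all genes tested were higher in GOM and 4.07% in RAD. Of 26 genes of interstitial matrix, 6 were higher in GOM and 5 in RAD. POSTN, or periostin, a matrix protein of fibroblasts and mesothelium, had 203.7 to 1008 TPM in GOM (median 445) and 9.47 to 90.5 in RAD (-3.51 ± 0.38), and FN1, or fibronectin, had 65.6 to 2679 and 78.02 to 465 with overlap (-2.31 ± 0.55). FBN1, or fibrillin, had 195.7 to 698.2 TPM in RAD and 109.5 to 277.2 in GOM (1.40 ± 0.18), and TNC and COL6A6 were higher in RAD by 2.46 ± 0.49 and 2.25 ± 0.51. In the basement membrane list, 6 of 17 were higher in RAD, COL4A1 and COL4A2 among them, and 3 (COL4A5, COL4A6 and LAMA3) in GOM. Of 16 tested progenitor and fibroblast markers, 7 were higher in RAD, with FMO2 and GFPT2 at 1.77 ± 0.21 and 1.80 ± 0.25, and DPP4 and PDGFRA were higher in GOM, a call that DPP4 lost under 1 alternative and PDGFRA under 4.

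Hi-C gave an A-B index for each 20-kb bin of the 18 autosomes. The index is a score with no unit that is positive in compartment A, the open part of the genome, and negative in compartment B, the closed part. RAD was higher in 12942 of 113298 bins (11.4%) and GOM in 7125 (6.29%) at an adjusted p below 0.05 and a difference above 0.75 (limma). RAD also had more of its bins in compartment A, 50.3% ± 0.232 (SD, n = 10) against 49.0% ± 1.43 (p = 0.00126, 2-sided permutation test). The excess towards RAD depended on the scaling. RAD was the higher depot in 64.5% of the called bins as deposited and in 46.3% after quantile normalization of the index between the 20 samples, when 8402 bins were higher in RAD and 9734 in GOM.

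Full switches of compartment were rare. A bin in A in over 80% of the samples of one depot and in B in over 80% of the other was in A in RAD for 316 bins (0.279%) and in A in GOM for 270 (0.238%), and these formed 209 and 153 runs of adjoining bins. A share of 53.9% of these was in A in RAD as deposited and 41.1% after quantile normalization. By the wider classes of 70% of samples or more and 30% or less, 1703 bins were mostly A in RAD and mostly B in GOM (1.5%) and 1052 the reverse (0.929%). Most called bins stayed in their compartment. The index was higher in RAD within the same compartment in 9379 bins (8.28%) and higher in GOM in 4726 (4.17%), a share of 66.5% for RAD as deposited and of 47.3% after quantile normalization.

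The index at gene starts moved with expression across genes. By the paper's methods, nuclei for Hi-C came from the upper, adipocyte-bearing layer after centrifugation, and no such step is named for RNA. Both measures may therefore come from different mixtures of cells, which was not tested. Among DEGs higher in RAD, 118 of 472 with an index (25.0%) started in a bin called higher in RAD and 11 (2.33%) in a bin called higher in GOM, against 11.4% and 3.27% of all 10598 tested genes with an index. Among DEGs higher in GOM, 124 of 886 (14%) started in a bin called higher in GOM and 29 (3.27%) in one called higher in RAD. The median difference of the index, RAD minus GOM, was 0.351 for DEGs higher in RAD, 0.135 for genes that were not DEGs and -0.153 for DEGs higher in GOM. The Spearman correlation across these genes between the log2 fold change and the index difference was 0.251, given as a description because neighbouring genes share bins.

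Of 30 tested genes that started in a switch to A in RAD, 5 were DEGs higher in RAD and 4 were DEGs higher in GOM, against 4.07% and 8.13% of all genes tested. Of 14 that started in a switch to A in GOM, 7 were DEGs higher in GOM and 0 were higher in RAD. The 6 DEGs in switches with the largest index difference are named. EN1 had an index of -0.91 to 0.11 in GOM (median -0.22) and of 0.91 to 2.37 in RAD (median 1.46), a difference of 1.86 ± 0.20 (SE; adjusted p = 4.6e-07, limma). PREX2, an activator of Rac GTPases, was in B in 10 of 10 GOM samples and in A in 10 of 10 RAD samples (1.86 ± 0.20), with 28.3 to 74.2 TPM in GOM and 44.2 to 135.0 in RAD (log2 fold change 0.73 ± 0.16). BICC1, an RNA-binding protein of epithelial tubules, was in A in 10 of 10 GOM samples and in 0 of 10 RAD samples (-1.68 ± 0.19), with a log2 fold change of -0.84 ± 0.18.

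CMAH, an enzyme of sialic acid, was in A in 10 GOM samples and 1 RAD sample (index difference -1.87 ± 0.21), and MTUS1 in 9 and 1 (-1.90 ± 0.27). Expression of CMAH did not overlap (17.8 to 75.9 TPM in GOM and 5.23 to 17.3 in RAD), and that of MTUS1 did (88.4 to 152.5 and 47.2 to 106.6). SV2B, a synaptic vesicle protein, was in A in 9 GOM samples and 0 RAD samples, with 0.580 to 30.3 TPM in GOM and 0.0347 to 0.373 in RAD (-5.60 ± 0.68). Among these named genes, which were picked as DEGs, the change of expression ranged from less than 2-fold (BICC1, PREX2 and MTUS1) to over 40-fold (SV2B).

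**Figure D5:**
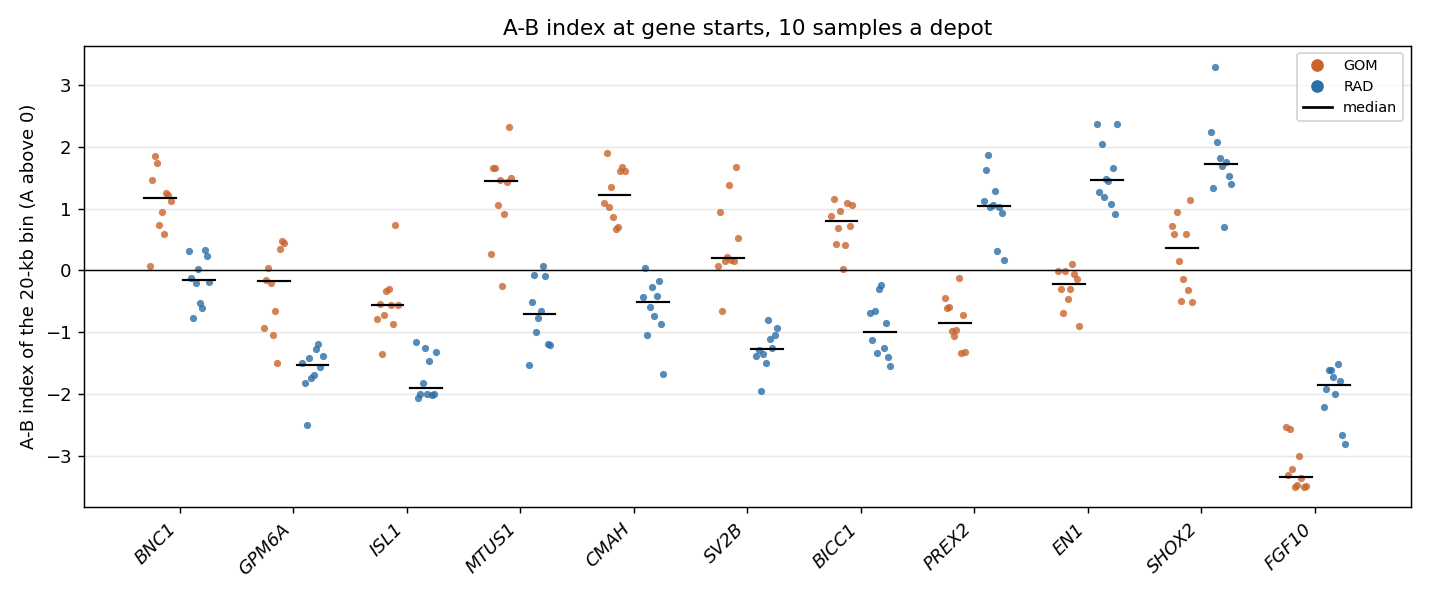
A-B index of the 20-kb bin that holds the start of 11 genes, with 1 point per Hi-C sample, 10 of GOM in orange and 10 of RAD in blue, the median as a bar and the border between compartments at 0. BNC1 to BICC1 are higher in GOM and PREX2 to FGF10 in RAD. All points of FGF10 lie below 0, and the medians of EN1, PREX2, CMAH, MTUS1, SV2B and BICC1 lie on opposite sides of 0 in the depots.

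Among the genes with the largest changes of expression, some moved in the index and others did not. BNC1 fell from a median of 1.17 in GOM (0.06 to 1.85) to -0.16 in RAD (-0.76 to 0.33), a difference of -1.25 ± 0.21 (adjusted p = 9.5e-05, limma). FGF10 rose from a median of -3.34 to -1.85 (1.21 ± 0.19), all within compartment B. ISL1 (-1.18 ± 0.20) and GPM6A (-1.29 ± 0.24) were also called, whereas the difference at NKX3-2 was -0.17 ± 0.25 (adjusted p = 0.63), at BARX1 -0.10 ± 0.19 (0.73), at GATA5 -0.48 ± 0.20 (0.068) and at ALX1 0.29 ± 0.28 (0.45). ALX1 stayed deep in compartment B in all 20 samples, at -5.19 to -2.75 in GOM and -5.18 to -2.88 in RAD, although it had the largest fold change in RAD.

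Among the visceral factors, WT1 had a mean index of 2.66 in GOM and of 0.11 in RAD (-2.55 ± 0.28, adjusted p = 9e-07, limma). HAND2 (-1.81 ± 0.27), GATA6 (-1.48 ± 0.18) and BNC1 were called in the same direction, so that 4 of 13 genes of that list were higher in GOM and 1 (NR2F1, 1.22) in RAD. Among all tested genes with an index, 3.27% started in a bin called higher in GOM and 11.4% in one called higher in RAD. These counts and shares use the index as deposited, and neighbouring genes can share bins. Among the body wall and limb factors, 10 of 23 were called higher in RAD and 0 in GOM. They included SHOX2 (1.52 ± 0.27), IRX3 (1.59 ± 0.22) and IRX5 (1.43 ± 0.18), and also SIM1, ZIC1 and PAX3, which were under 1 TPM in all 20 libraries. The index and expression therefore did not always move together.

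The HOX clusters gave the plainest contrast between both measures. All 7 HOXD genes with an index lay in bins called higher in RAD, by 1.27 to 1.63, with HOXD9 to HOXD12 sharing a bin. The share over all tested genes with an index was 11.4%, and these values are of the index as deposited. In HOXA, where expression of HOXA9 and HOXA10 differed by more than 16-fold, 0 of 8 were called and the differences lay between -0.18 and 0.05. In HOXB 0 of 8 were called (-0.54 to 0.19), and in HOXC 0 of 9 (-0.0027 to 0.325). At HOXA9, the index had a median of 2.94 in GOM and 2.84 in RAD, with both depots in A in all samples. FABP4 had a mean index of 0.82 in GOM, with 9 of 10 samples in A, and of 2.42 in RAD, with all 10 in A (1.601 ± 0.26, adjusted p = 7.2e-05).

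In expression, most depot differences had the same direction in the WG pigs. Of the 1710 DEGs in WL, 98.8% had the same direction in WG, and 1157 were also called there, which is 67.7% of the DEGs in WL and 68.7% of the 1685 called in WG (11.9% of genes tested there). All 24 genes ranked by fold change were called in WG in the same direction. The fold change was larger in WL for 21 of the 24, a count that favours WL because the genes were ranked there. BNC1 had a log2 fold change of -8.07 in WG, with 9.20 ± 5.91 TPM (SD, n = 45) in GOM against 18.8 ± 13.2 (n = 10) in WL, and ALX1 had 7.22. Of the 9 mesothelial markers tested, 8 had the larger fold change in WL and 0 passed the test of the difference between WL and WG.

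Of 14127 genes tested for a depot difference that itself differed between WL and WG, 10 passed (0.0708%; adjusted p below 0.05 and a ratio of fold changes above 1.5, edgeR), 8 towards GOM and 2 towards RAD in WL. At an unadjusted p below 0.05 there were 536. The count depended on the fit, with 17 towards GOM and 11 towards RAD with the replicate block, 17 and 7 by DESeq2, 5 and 1 without the WL libraries of lower base quality, 13 towards GOM with no filter on low genes, and 21 towards GOM without GOM replicates 3 and 7. That last run leaves out WL omental libraries that lay nearer to RAD, which by itself widens the depot difference in WL. SCEL, a protein of the cornified envelope that mesothelium also carries, was 3.27 ± 0.71 log2 units further towards GOM in WL (adjusted p = 0.018). Its mean was 12.1 ± 8.36 TPM in GOM and 0.153 ± 0.128 in RAD of WL (SD, n = 10), and 8.63 ± 7.31 and 1.00 ± 0.896 in WG. SLC16A12, a transporter of creatine, had a depot difference in WG and did not pass the test in WL, at 8.54 ± 3.27 TPM in RAD and 1.303 ± 0.502 in GOM of WG against 3.88 ± 1.53 and 2.47 ± 2.10 in WL (difference -2.10 ± 0.30, adjusted p = 2.9e-06). NOX4, an oxidase that makes hydrogen peroxide, moved the other way (1.13 ± 0.22, adjusted p = 0.0052). For the A-B index, the depot difference differed between WL and WG in 1730 of 113298 bins (1.53%; adjusted p below 0.05 and a difference above 0.75, limma).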

How the data were processed

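The WL data on expression, chromosome contacts and H3K27ac were used as deposited. The authors estimated transcript abundance with kallisto 0.43.0 in stranded mode on Sscrofa11.1 and summed it by gene, so the deposited estimated counts are not whole, and were rounded here. The deposited TPM covers PCGs and non-coding transcripts together. The A-B index is a score that the authors computed per sample from balanced, normalized contact maps, and it comes without depth per bin. The ROSE tables hold the authors' H3K27ac signal of each region, pooled over samples, with rank and super-enhancer mark, and the scaling of that signal is not given in the sources used here. The 9 columns of the count table and the 9 of the index table that match no sample were not used.

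In R 4.3.3, the quasi-likelihood test of edgeR 4.0.16 with TMM factors was run on counts of PCGs that passed 0.5 TPM in 80% or more of a depot's libraries, and limma 3.58.1 on the index. The SE given with a log2 fold change is its absolute value divided by the square root of the F statistic of that test, and edgeR does not report it. P-values were adjusted by Benjamini-Hochberg over all genes or bins, and the scripts were tested on simulated counts and index values. Alternatives were DESeq2 1.42.0, other size factors, edgeR's exact test, no filter, the replicate number as a block, a covariate for the share of TPM on PCGs, libraries left out, quantile normalization of the index and other thresholds. Symbols came from a table of gene names (14821 genes), and 13094 of these genes were placed by RefSeq on an autosome. On the 18 autosomes, bins ended within 1 bin of the chromosome length in the reference. Genes were named by rule: the 12 of largest fold change in each direction with a mean of at least 5 TPM and no overlap, up to 4 DEGs in each direction per list with its most abundant member, any member of a transcription factor list, the 6 switched DEGs of largest index difference, and up to 5 genes in each direction for WL against WG. Values of some of these genes are not reported here. These members and lists were chosen with earlier results of these data known. Figures and joins used Python 3.11.15. The p-values measure the spread between the samples as labelled, and do not allow for the pigs that the depots share.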

Additional observations from a re-analysis of the deposited data

Results flagged for a closer look

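In 59 groups of 10 samples, the highest or lowest sample was compared with the nearest of the others by Dixon's ratio, and 9 groups held a sample past the 95% limit for 10 samples. For normally distributed values, chance alone gives about 1 in 20. TPM was used untransformed and was not tested for this, so that rate may be too low here. GOM replicate 8 was high for LGR5 (31.4 TPM against a median of 4.31), for GATA5 (49.5 against 13.4) and for the kidney and adrenal markers (122.2 summed TPM against 60.7, to which LRP2 contributes). RAD replicate 10 was high for the mesothelial markers (110.8 summed TPM against a median of 17.3), although still below every omental library. GOM replicate 3 was high for Schwann cell and nerve markers (28.2 summed TPM against 8.80). FGF10 was high in RAD replicate 9 (14.8 TPM against 6.43), and SULT1B1 in GOM replicate 2 (7.25 TPM against 2.54). GOM replicate 9 had the lowest share of TPM on PCGs (70.8% against a median of 87.5%), and GOM replicate 10 the lowest share of bins in compartment A (45.4% against 49.1%).

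The depot difference differed between WL and WG by the test of the difference itself (edgeR, adjusted p from 2.9e-06 to 0.037) for 7 genes with a symbol and a mean of at least 5 TPM in 1 of the 4 groups. The log2 difference between WL and WG was 1.23 for LMOD1, a smooth muscle protein, and 1.13 for NOX4, and it was -3.27 for SCEL, -2.12 for CLDN1, a claudin of tight junctions, -2.10 for SLC16A12, -1.34 for TTC12 and -1.33 for GFRA3, a receptor of artemin. LMOD1 was higher in GOM in WG (35.97 ± 15.2 TPM, n = 45, against 18.03 ± 6.69, n = 39) and did not pass the test in WL (28.8 ± 13.9 and 35.1 ± 22.5, n = 10 each).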

How the results depend on the processing

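The numbers of DEGs in each direction stayed within 1.5 times of those reported under all 9 alternatives run, 2 of which (without libraries under 80% of TPM on PCGs, and without GOM replicates 3 and 7) were chosen after seeing the data. They ranged from 452 to 676 for RAD and from 940 to 1307 for GOM, the lowest without the 5 libraries of lower base quality. These were GOM replicates 6, 9 and 10 and RAD replicates 7 and 9. The base quality values and the limit behind this set are not reported here. Without these 5 libraries, 76.5% of the reported DEGs were called again, the lowest share among the alternatives. The run without GOM replicates 3 and 7 left out libraries because they lay nearer to RAD. Its higher counts, here and for the interaction, are therefore no check of stability. No gene named above reversed. The interaction of depot with WL or WG was less stable. Towards RAD it gave 2 genes as reported, 7 by DESeq2, 11 with the replicate block and 1 without the WL libraries of lower base quality, and towards GOM 8 as reported, 17 by DESeq2, 13 with no filter on low genes, 17 with the replicate block, 5 without the WL libraries of lower base quality and 21 without GOM replicates 3 and 7.

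For the A-B index, quantile normalization lowered the bins higher in RAD to 8402 and those within a compartment to 5914. A difference above 0.5 raised the called bins to 22577 (RAD) and 11444 (GOM) and those within a compartment to 17652 and 8400. Classes at 80% and 20% left 838 and 589 frequency changes, and switches at over 70% of samples numbered 838 and 589. Leaving out GOM replicate 9, an adjusted p below 0.01 and the block changed no count by over 1.5 times. Among genes named in the text, AGT, APLN, CCNB2, DPP4, FST, GATM, HSD11B1, INSIG1, NSDHL, PDGFRA, SQLE, TYMS, UCP2, UCP3 and VSIG4 lost their call under at least 1 alternative for expression, and ADIPOQ gained it under 5.

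The replicate numbers were not taken to pair the samples. The expression of same-numbered samples deviated together with r above 0.1 in 9 of 10 pairs (median 0.320, lowest -0.059) and the index in 8 of 10 (median 0.137). For samples of different numbers, the median r was -0.057 in expression and -0.027 in the index. In expression, 6 of 10 GOM samples matched best with the RAD sample of their own number, and in the index 3 did. Shared pigs would give such a pattern, but the labels do not state it. With the replicate block, 676 DEGs were higher in RAD and 1249 in GOM. The index has no depth per bin, and genes with under 10 reads in a depot, such as BNC1 in RAD, allow no exact fold change.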

Other observations

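Retinoic acid genes were higher in GOM for 4 of 12 tested (CRABP1, ALDH1A2, RDH10 and RARG) and in RAD for 0. The shares over all genes tested were 8.13% for GOM and 4.07% for RAD. RDH10, which makes the precursor of retinoic acid, did not overlap between depots, with 21.1 to 38.2 TPM in GOM and 9.83 to 19.7 in RAD (log2 fold change -0.88 ± 0.15, adjusted p = 0.00022, edgeR). Of 12 steroid receptors and enzymes, PGR, the progesterone receptor, was higher in RAD (20.5 to 44.97 TPM against 6.12 to 33.01 in GOM, 1.06 ± 0.24), as was SRD5A1, and HSD11B1, which regenerates cortisol, was higher in GOM (-0.69 ± 0.18, with its call lost under 1 alternative). Cholesterol synthesis had 5 of 17 higher in RAD (LSS, SQLE, INSIG1, SC5D and CYP51A1) and 1 in GOM (NSDHL), of which SQLE, INSIG1 and NSDHL lost their call under at least 1 alternative.

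Among circadian clock genes, NR1D1 was higher in GOM (-1.78 ± 0.43) and 16 of 18 did not pass. Interferon-stimulated genes differed in 1 of 19 (IFIT2, higher in RAD), MHC class II genes in 0 of 6, the IGF axis in 1 of 12 (IGFBP6, higher in RAD), VEGF and angiopoietin genes in 1 of 9 (VEGFC, higher in RAD), matrix proteases and inhibitors in 6 of 17 (4 higher in RAD) and proliferation genes in 2 of 12 (CCNB2 higher in RAD and TYMS in GOM, both with calls lost under at least 1 alternative). Mitochondrially encoded genes differed in 0 of 12, and skeletal muscle markers in 0 of the 1 tested. Over all genes tested, 12.2% differed. Of 5 Schwann cell and nerve markers tested, 1 was higher in RAD and 0 in GOM.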
